A study of Mus musculus with 50 samples.

Results

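Genes of the channels that carry sodium, calcium, chloride and the hyperpolarization-activated current were followed in mouse hippocampus of transgenic (TG) and wild-type (WT) animals. The members are all genes on the Agilent 44k array whose symbol begins with Cacna, Cacnb, Cacng or Clcn, is Scn with a digit and a or b, or is Hcn with a digit. The array held 63 such probes for 44 genes, out of 34481 genes and unnamed probes. A single probe measured 30 of the genes and 2 or more probes measured 14. For Cacna1i, Cacna1s, Cacna2d4, Hcn4, Scn1a, Scn2a, Scn3a, Scn4b and Scn9a no probe was named by this rule, so these 9 genes were not analysed here.

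Voltage-gated sodium channels start and carry the action potential, and their beta subunits set the surface level and gating of the pore protein. Calcium channels couple depolarization to transmitter release and gene expression, and are built from a pore (Cacna1), an alpha2delta subunit (Cacna2d) and a beta subunit (Cacnb). Most of the Cacng proteins of the hippocampus are TARPs, which bring AMPA-type glutamate receptors to the synapse. CLC proteins are chloride channels of the cell surface or chloride/proton exchangers of endosomes and lysosomes. HCN channels open on hyperpolarization and damp the dendrites of hippocampal pyramidal cells.

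The mice were males of the C57/BL6j strain, each housed alone for 7 days before both hippocampi were taken. TG mice overexpressed DCLK-short, a splice form of doublecortin-like kinase 1 described by the study as constitutively active. The driving promoter and the age are not given in the sources used here. Each of the 10 Agilent arrays carried 1 WT mouse (WT1, WT3, WT4, WT5 or WT6) against 1 TG mouse (TG1 to TG5), so that every one of the 10 mice was on 2 arrays, once in Cy3 and once in Cy5. An array is named here by its Cy3 and then its Cy5 mouse, as in WT1/TG4.

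Between 80.1% and 88.4% of all probes were well above background in both channels of an array. Of the channel genes, 37 had a probe well above background on all 10 arrays. Clcn1 and Cacna1e were on none, and Cacng1 on 1, so their signals there are only bounds. No member probe was saturated.

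All signs below follow the labels, and these are in doubt: they are opposite to the study's own direction for this platform. Over 492 genes named on both the Agilent and the Applied Biosystems (ABI) arrays, the t statistics of the 2 platforms had r = -0.34 across genes, which are not independent replicates. The log2 TG over WT ratio of Dclk1, which the transgene overexpresses, was -0.068 ± 0.032 (SE, 10 arrays, FDR = 0.27, limma) over 4 probes, so it did not settle the direction. An exchange of the first 5 arrays with the last 5 would turn every Agilent TG over WT ratio given here, but not the ABI difference. Under it the mouse labelled TG4 would be WT5 and the mouse labelled WT5 would be TG4. The levels given for each of the other 8 mice would then be means of 2 different animals. The Scn8a level of the mouse labelled TG4 would stay at 6.48, under the name WT5. Because the other levels would be recomposed, small deviations of that mouse from them could change sign, and this was not followed.

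No channel gene was called. With the moderated t-statistic of limma over 10 log2 ratios and a false discovery rate (FDR) of 0.1, 0 of 44 channel genes passed, beside 8.17% of all genes tested. An unadjusted p under 0.05 was reached by 4 of the 44 (9.09%), namely Clcn3, Cacnb3, Cacnb1 and Cacna2d2, beside 19.1% of all genes. Each mouse stands on 2 arrays, so the arrays are not 10 independent samples. In the fit with 1 value per mouse (5 TG against 5 WT), 0 of 44 passed the FDR limit and 0 had an unadjusted p under 0.05, beside 0.0841% and 8.19% of all genes. With the arrays exchanged, the same fit called 0 of 44. That fit has no array term and ignores which mice shared an array, so differences between arrays stay in its error. The study, fitting intensities of this platform, found no differential genes until dye and array were in its model. In 0 of 44 genes did the 5 WT and the 5 TG mice not overlap, beside 2.12% of all genes. Fitted probe by probe, 0 of 63 probes passed, beside 7.42% of all probes, and 5 of 63 (7.94%) had an unadjusted p under 0.05, beside 18.9% of all probes.

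A p that misses the limit leaves a range of differences open. The 95% confidence interval of the difference between mice lay inside ±0.5 on the log2 scale (a 1.41-fold change) for 39 of 44 genes, and inside ±0.25 (1.19-fold) for 27. Scn8a, Cacng2, Clcn3 and Cacnb3 were among the 5 genes with wider intervals. Only Scn8a had an interval that passed 1 on the log2 scale, from -1.38 to 0.35. The genes that the study called on this platform included changes below 1.19-fold, so differences of that size are not excluded for the members. The median log2 ratio of the 44 genes was -0.0078, against 0.0034 over all genes, with 19 positive and 25 negative.

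**Figure D1:**
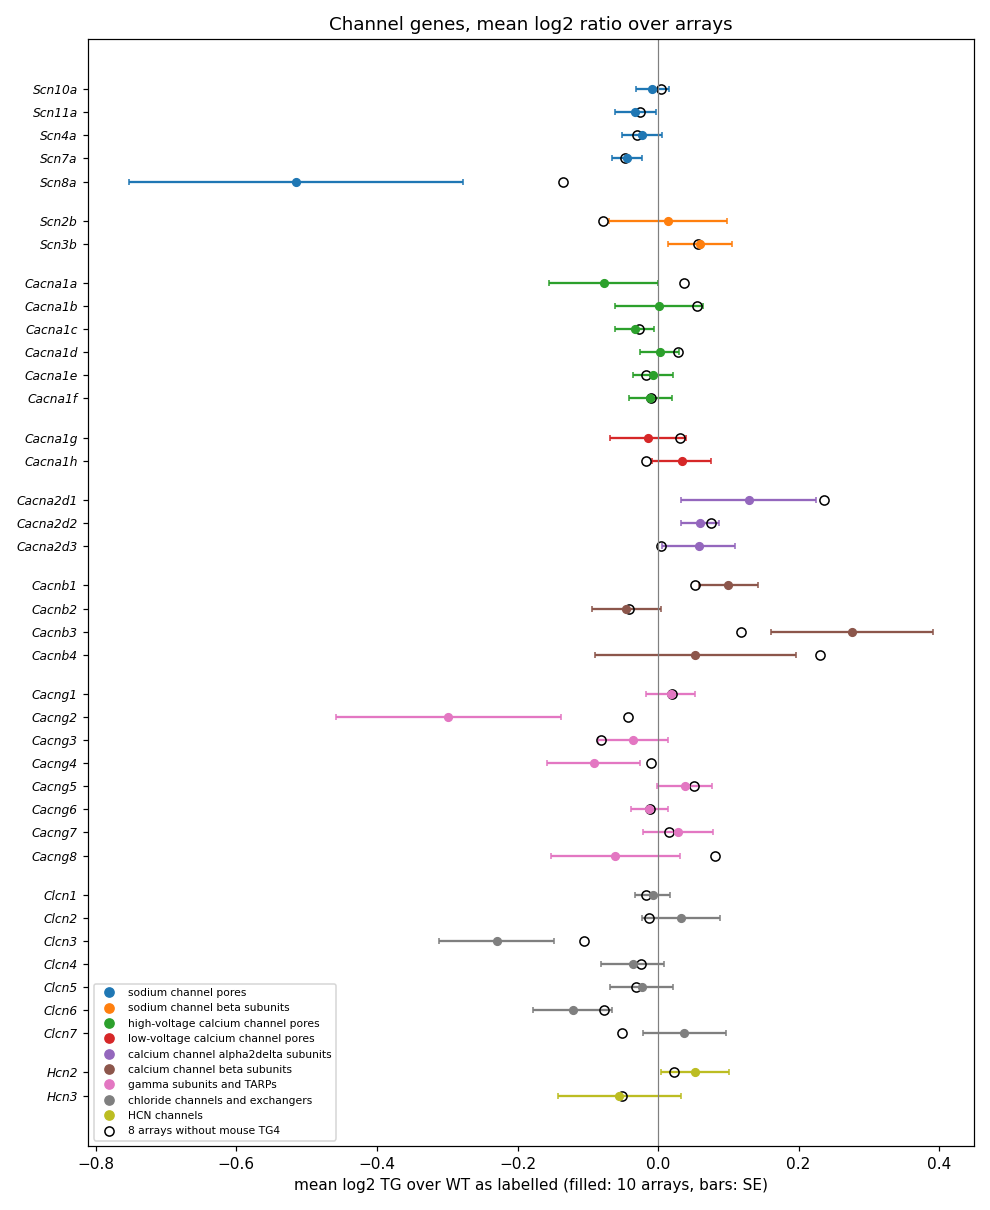
Mean log2 TG over WT ratio (x axis, as labelled) of each of the 39 channel genes described one by one (y axis), grouped by role, with filled points and SE bars for 10 arrays and open points for the 8 arrays without the mouse TG4. Most points lie within 0.1 of 0, and the points farthest from it, Scn8a at -0.52, Cacng2 at -0.30 and Cacnb3 at 0.28, move toward 0 once TG4 is left out.

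The genes described next with every value were chosen after their values were seen, for the smallest p or because 1 mouse stood apart. Among the 6 sodium channel pores, Scn8a had the largest mean ratio of all 44 members. Scn8a encodes the pore that dominates at mature axon initial segments and nodes of Ranvier. Its log2 level in the WT mice was 8.46, 8.66, 8.83, 9.03 and 8.58 (WT1, WT3, WT4, WT5 and WT6). In the TG mice it was 8.66, 8.70, 8.56, 6.48 and 8.59 (TG1 to TG5). TG4 thus lay far below every other mouse, and the other 4 TG mice lay within the WT range. The ratio was -0.52 ± 0.24 (SE, 10 arrays, FDR = 0.27, limma), from -2.16 to 0.29. The 2 lowest ratios belonged to TG4, with -2.16 on WT1/TG4 and -1.90 on TG4/WT3, so the low value appeared with the mouse in Cy5 and in Cy3. Before normalization the Scn8a spot on WT1/TG4 read 515 for WT1 and 80.3 for TG4. Without the arrays of TG4 the ratio was -0.14 ± 0.098 (SE, 8 arrays, FDR = 0.60, limma).

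The other sodium channel pores that are described had ratios between -0.044 and -0.0080. Scn4a (skeletal muscle), Scn7a (a sodium sensor of glia), Scn10a and Scn11a (sensory neurons) are best known outside hippocampal neurons. The ratio of Scn7a was negative on 9 of 10 arrays, at -0.044 ± 0.022 (FDR = 0.31, limma).

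Scn2b, which encodes a beta subunit linked to the pore by a disulphide bond, went the other way in TG4. Its log2 level was 11.2 in TG4, against 10.4 to 10.6 in the other TG mice and 10.5 to 10.9 in the WT mice. Its mean ratio was 0.014 ± 0.084 (FDR = 0.96, limma) and turned to -0.078 ± 0.076 without TG4. Scn3b had a ratio of 0.059 ± 0.045.

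The ABI array is a single-colour platform hybridized with 5 WT and 5 TG hippocampi. By the labels its WT mice included WT2, where Agilent had WT6. A gene symbol could be assigned to only 527 of its 33012 probes, so other members may be present there without a name. Scn2b was the only member with a named probe. Its level after a variance-stabilizing fit was 14.6 ± 0.12 (SD, n = 5) in WT and 14.5 ± 0.29 (SD, n = 5) in TG. The difference was -0.089 ± 0.15 (SE, FDR = 1.00, limma), with an interval from -0.42 to 0.24. Of all ABI probes 0.00909% were called, and 4.17% had an unadjusted p under 0.05. There the 2 lowest levels were those of TG4 (14.3) and TG5 (14.1), whereas the mouse labelled TG4 was the highest for this gene on Agilent. With the Agilent arrays exchanged, that mouse would be WT5, whose ABI level was 14.6. The study saw different signal distributions in 2 ABI batches run on separate days. The labels do not say which mice were in which batch, and batch was not a term in the fit.

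The mean ratios of the high-voltage calcium channel pores lay between -0.078 and 0.0022. Over single arrays Cacna1a ran from -0.57 to 0.225 and Cacna1b from -0.24 to 0.43. Cacna1a, the pore of the P/Q-type channel of presynaptic terminals, had a log2 level from 7.29 to 7.54 in WT mice, and of 7.52, 7.38, 7.33, 6.83 and 7.49 in TG1 to TG5. TG4 was again the lowest mouse. The ratio was -0.078 ± 0.077 (FDR = 0.70, limma) and 0.037 ± 0.046 without TG4. Cacna1b, the N-type pore, had 0.0011 ± 0.063, and Cacna1c and Cacna1d, the L-type pores of neurons, had -0.033 ± 0.028 and 0.0022 ± 0.028. Of the low-voltage (T-type) pores, Cacna1g had -0.014 ± 0.054 and Cacna1h 0.033 ± 0.042. Cacna1e and Cacna1f were well above background on 0 and 8 arrays.

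None of the 3 alpha2delta and 4 beta subunits passed the FDR limit. Cacna2d1 encodes the alpha2delta protein that binds gabapentin. It had log2 levels of 6.54, 6.53, 6.64, 6.49 and 6.61 in the WT mice and of 6.92, 6.93, 6.61, 6.33 and 6.65 in TG1 to TG5. Its ratio was 0.13 ± 0.096 (FDR = 0.55, limma), and 0.24 ± 0.085 (FDR = 0.18, limma) without TG4, the only TG mouse below the WT mice. The ratio of Cacna2d2 was 0.059 ± 0.027 (FDR = 0.26, limma) over 4 probes and positive on 8 of 10 arrays. Its levels lay between 7.21 and 7.38 in WT and between 7.32 and 7.39 in TG mice, so the groups overlapped. One of its probes (A_52_P457895) had the lowest FDR of all 63 probes, at 0.15 ± 0.050 (FDR = 0.11, limma). When dim probes were left out, the 2 remaining probes of Cacna2d2 gave 0.14 (FDR = 0.089, limma), past the limit, and the other 2 probes had ratios of -0.044 and 0.0034. Cacna2d3 had 0.058 ± 0.052.

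Beta subunits bring the calcium channel pore to the membrane. Cacnb3, abundant in hippocampal neurons, had a log2 level of 9.05, 8.91, 8.90, 9.20 and 9.16 in the WT mice. The TG mice had 9.19, 9.07, 9.27, 9.90 and 9.16, with TG4 above all others. The ratio was 0.28 ± 0.12 (FDR = 0.22, limma), positive on 8 of 10 arrays, and 0.12 ± 0.070 (FDR = 0.48, limma) without TG4. Cacnb1 had 0.10 ± 0.042 (FDR = 0.22, limma), and 0.052 ± 0.034 (FDR = 0.54, limma) without TG4, which was also its highest mouse. Cacnb4, whose loss gives the lethargic mouse, had levels of 7.36 to 7.56 in WT mice, and of 7.84, 7.75, 7.49, 6.93 and 7.53 in TG1 to TG5. Its ratio was 0.053 ± 0.14 (FDR = 0.92, limma) with all arrays and 0.23 ± 0.12 (FDR = 0.39, limma) without TG4. Cacnb2 had -0.045 ± 0.049.

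Among the 8 Cacng genes, Cacng2 (stargazin, a TARP of AMPA receptors) spread most. Its log2 level was 8.06, 7.54, 8.17, 8.20 and 8.07 in the WT mice and 8.27, 7.98, 8.22, 6.62 and 7.46 in TG1 to TG5. TG4 was lowest, and TG5 and WT3 followed. WT3 shared 1 array with TG4 and the other with TG5. The ratio was -0.30 ± 0.16 (FDR = 0.36, limma), with -1.26 and -1.38 on the arrays of TG4, and -0.043 ± 0.069 (FDR = 0.88, limma) without them. Cacng8, the TARP most typical of the hippocampus, had -0.63 and -0.64 on the arrays of TG4. Its mean over all arrays was -0.061 ± 0.092 and without TG4 it was 0.082 ± 0.046 (FDR = 0.45, limma). Cacng3, Cacng4, Cacng5 and Cacng7 had ratios from -0.092 to 0.038. Cacng6 had -0.012.

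Of the 9 chloride channels and exchangers, Clcn3 had the smallest p of all members. It encodes an exchanger of endosomes and synaptic vesicles whose loss in mice is followed by hippocampal degeneration. The log2 levels were 9.78, 9.89, 9.88, 10.1 and 9.83 in the WT mice and 9.94, 9.73, 9.78, 9.10 and 9.77 in TG1 to TG5. TG4 was below all others. TG2 (9.726), TG5 (9.771) and TG3 (9.775) lay only slightly under the lowest WT mouse, WT1 (9.776). The ratio was -0.23 ± 0.082 (FDR = 0.14, limma), negative on 8 of 10 arrays, and -0.11 ± 0.047 (FDR = 0.29, limma) without TG4. Without the arrays of WT6 it was -0.30 (FDR = 0.080, limma), past the limit. Clcn6, a late endosomal exchanger, had -0.12 ± 0.056 (FDR = 0.27, limma), and -0.19 (FDR = 0.093, limma) without the arrays of TG3. It was -0.063 (FDR = 0.66, limma) without those of WT1 and -0.077 (FDR = 0.61, limma) without those of TG4. Clcn2, Clcn4, Clcn5 and Clcn7 had ratios between -0.036 and 0.037.

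Hcn3 separated by dye and not by genotype. Hcn3 had ratios of 0.10 to 0.37 on the 5 arrays with WT in Cy3 and of -0.57 to -0.22 on the 5 arrays with TG in Cy3. The dye effect in a fit with a dye term had FDR = 0.0024 (limma), while the genotype ratio was -0.055 ± 0.088. Of the 44 members, 9 (20.5%) had a dye effect at an FDR of 0.1, beside 23.9% of all genes. Among these were Hcn2, Hcn3, Cacnb2, Cacna1e, Cacna1f, Cacng1, Cacng5 and Clcn5. The balanced design cancels such an effect in the mean but widens the SE, and with the dye term 0 of 44 members passed for genotype. Hcn2 had 0.053 ± 0.049.

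**Figure D2:**
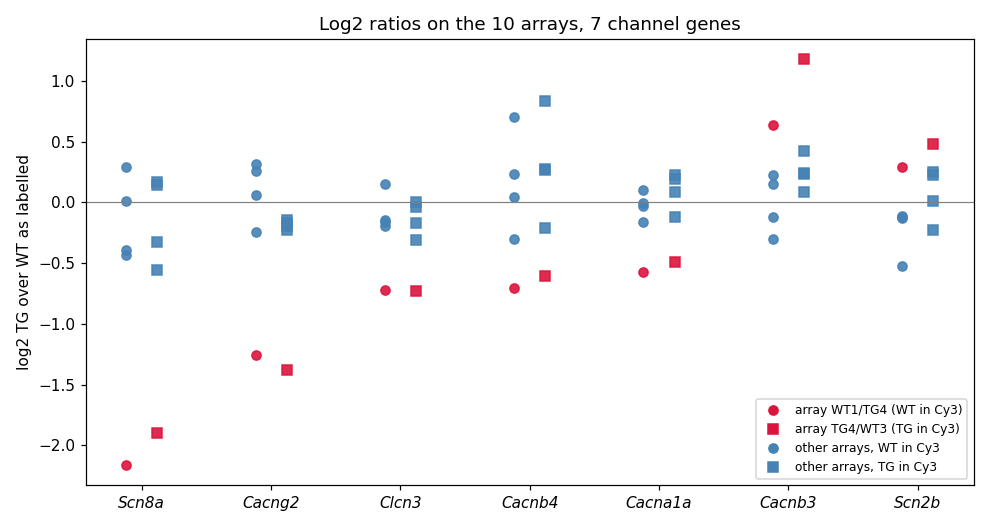
Log2 TG over WT ratio (y axis, as labelled) of 7 channel genes on each of the 10 arrays, with circles for arrays with WT in Cy3 and squares for arrays with TG in Cy3. The 2 arrays with TG4 (red) are the lowest points for Scn8a, Cacng2, Clcn3, Cacnb4 and Cacna1a and the highest for Cacnb3 and Scn2b, in both dye orientations.

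**Figure D3:**
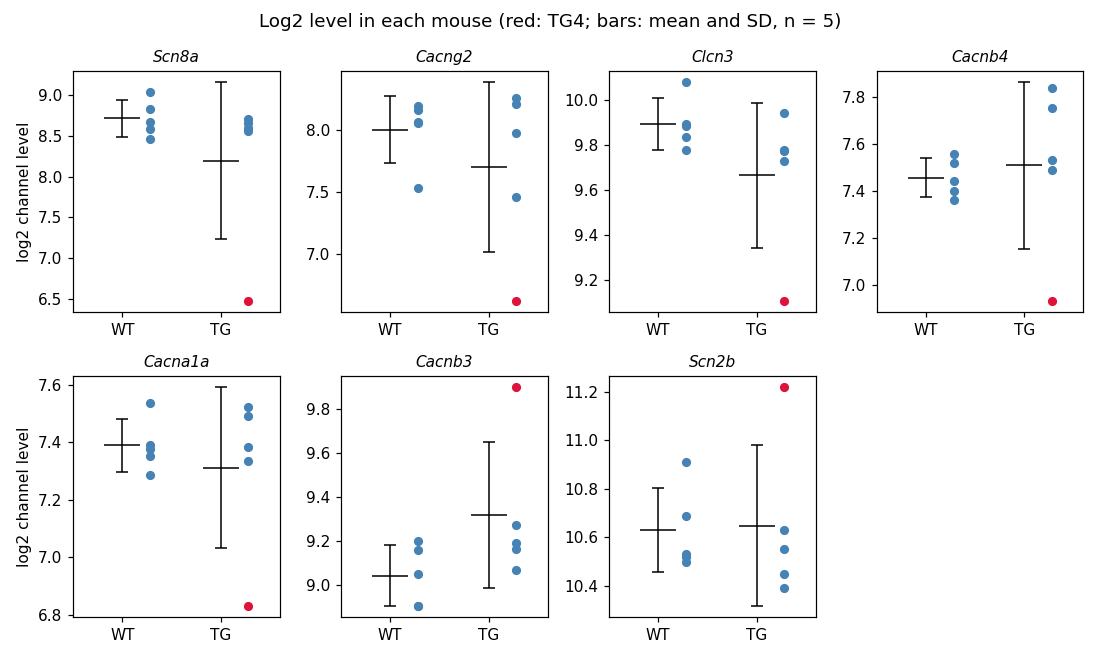
Log2 level (y axis, a separate scale per panel) of 7 channel genes in the 5 WT and 5 TG mice, with the mean and SD of each group. TG4, in red, lies outside the range of the other 9 mice in every panel, below it for 5 genes and above it for 2, and the other TG mice overlap the WT mice.

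The mouse labelled TG4 therefore stood apart over many members. It lay over 0.5 from the median of the other 9 mice (log2 level) for 8 of the 44 members (18.2%), beside 6.01% of all genes, and over 1 for 3 (6.82%, with Scn8a and Cacng2 among them), beside 1.38%. Each of the other mice passed 0.5 for at most 1 member. TG4 was the lowest of the 10 mice for 13 members (29.5%, beside 17% of all genes) and the highest for 13 (29.5%, beside 18.4%). The ratios of the 44 members on its 2 arrays had r = 0.92 (0.75 over all genes). The next highest of these correlations was 0.60, for WT3, which shared an array with TG4. Over all genes, 477 were over 1 from the other mice in TG4, against 7 to 110 in each other mouse. With its 2 arrays left out, 0 of 44 members passed the FDR limit, beside 4.74% of all genes, and 3 (6.82%) had an unadjusted p under 0.05, beside 16.2%.

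**Figure D4:**
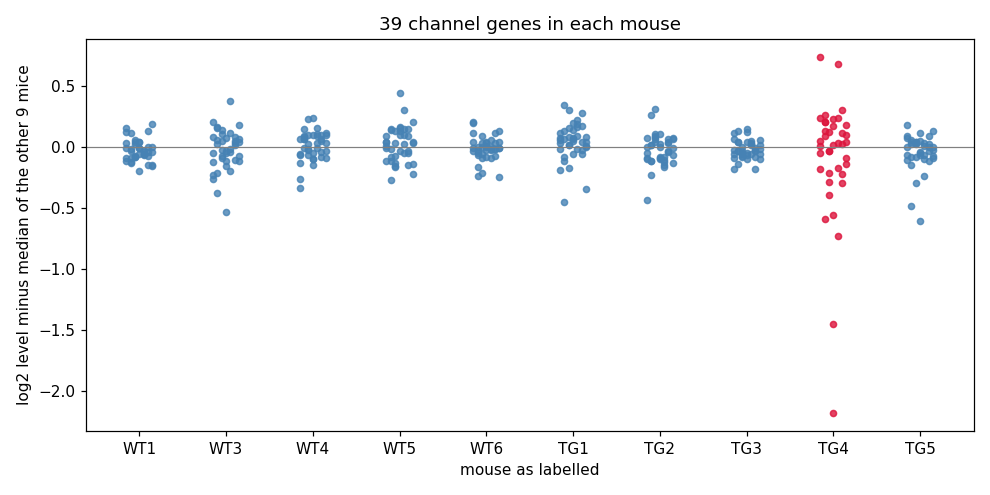
Log2 level minus the median of the other 9 mice (y axis) for 39 channel genes in each mouse (x axis). The points of TG4 reach from -2.18 to 0.74, a wider range than in any other mouse.

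Some cell type markers also stood apart in TG4. The mean log2 level of 3 oligodendrocyte markers (Mbp, Mog and Mobp) was 8.45 in TG4, against 9.16 to 9.44 in the other TG mice and 9.27 to 9.69 in the WT mice. Mbp, Mog and Mobp were at -1.45, -1.22 and -0.28 from the median of the other mice. The mean of 6 markers of hippocampal excitatory neurons was 8.5 in TG4 and 8.78 to 8.87 in the other TG mice, and 1 gene, Slc17a7, carried this difference, at -2.11 from the other mice. Prox1 was at 0.23, and Dsp, Wfs1, Grik4 and Neurod6 were between -0.081 and -0.0027. All 6 were well above background on every array. The means of the 3 GABAergic (9.88), 3 astrocyte (7.64) and 3 microglia markers (6.82) in TG4 lay below the other TG mice but inside the range of the WT mice. Those of the 3 choroid plexus, 2 thalamus and 2 blood markers lay inside the range of the other TG mice. Single markers within these sets diverged in TG4. Gad2 was at -0.83 from the other mice, but Gad1 and Slc32a1 were at 0.081 and 0.10. Gfap, Aqp4 and Slc1a2 were at -0.38, -0.043 and 0.18. Itgam, Cx3cr1 and Aif1 were at -0.52, -0.28 and 0.22. Ttr was at -1.05, with Folr1 and Kcne2 at -0.25 and -0.16. Some markers were also called between genotypes over arrays, beside 8.17% of all genes. As labelled, Mbp was at -0.51 (FDR = 0.084, limma), Itgam at -0.15 (FDR = 0.088) and Alas2 at -0.13 (FDR = 0.095). Aqp4 was at 0.30 (FDR = 0.067). For Aqp4 and Alas2 the level of TG4 was near the other mice (-0.043 and -0.077). With 1 value per mouse the lowest FDR among these called markers was 0.32. In whole tissue, fewer cells of a type and less RNA per cell cannot be told apart, and the part of these markers in the channel values was not tested.

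Genes with several probes showed where along the transcript the value of TG4 was read. The 3 probes of Cacnb4 had TG4 at -0.79, -0.57 and -0.36 from the other mice, in order from the 5′ end. For Cacna1h, only the probe nearest the 3′ end (A_51_P280384) was high in TG4, at 0.80, and the other 2 probes were at -0.06 and -0.12. Clcn3 had -0.86 at the 5′ and -0.60 at the 3′ probe, and Cacna1a the reverse order, -0.44 and -0.74. The 2 probes of Clcn3 were assigned to different RefSeq transcripts, as were those of Scn3b. For these genes position and transcript form cannot be told apart.

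Comparing the outermost probes of each gene, TG4 was lower at the 5′ probe in 8 of 13 channel genes, with a median difference (3′ minus 5′) of 0.19. WT5 was lower there in 9 of these 13 genes, with a median of 0.13, and WT6 in 8, so the count did not set TG4 apart. Over 5189 genes with 2 or more placed probes, TG4 was lower at the 5′ probe in 65.9%, with a median of 0.10. In the other mice the share of all genes ran from 41.3% to 57.6%. Whether this had a part in the channel values was not tested.

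**Figure D5:**
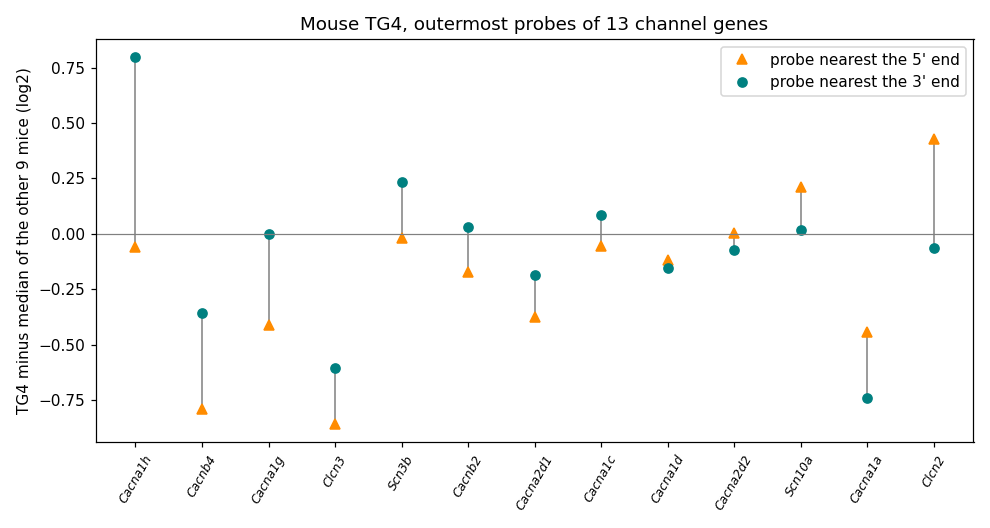
Log2 level of TG4 minus the median of the other 9 mice (y axis) at the probe nearest the 5′ end (triangles) and the probe nearest the 3′ end (circles) of 13 channel genes (x axis, sorted by the difference). The triangle is below the circle in 8 genes, most in Cacna1h (-0.06 and 0.80).

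Whether probes of 1 gene disagreed about the genotypes was tested for 25 pairs of probes. The test was a two-sided exact permutation test over all splits of the 10 mice into 5 and 5. For 2 probes of Cacna1d that differed by 0.11 the exact permutation p was 0.0079, the smallest such a test can give. After Benjamini-Hochberg adjustment over the 25 pairs it was 0.20, so a single pair could not have passed, and the test does not show that probes of 1 gene gave the same difference.

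A list of 28 partners of these channels held 26 measured genes, of which 1 was called higher and 1 lower in TG as labelled, beside 8.17% of all genes called in either direction. Cnih2, a cornichon that joins AMPA receptors together with TARPs, was higher by 0.31 ± 0.056 (FDR = 0.020, limma), on 10 of 10 arrays. Fgf13, an intracellular partner of sodium channel pores, was lower at -0.24 ± 0.066 (FDR = 0.071, limma), with 2 of 10 arrays above 0 and TG4 at -0.56 from the other mice. With 1 value per mouse their FDR was 0.12 and 0.63. The median ratio of the 26 partners was -0.0014. Ank3, the ankyrin that anchors sodium channels at the axon initial segment, was at -0.32 ± 0.13 (FDR = 0.20, limma), and TG4 was at -1.11 from the other mice. Pex5l, which traffics HCN channels, had -0.23 ± 0.12 (FDR = 0.32, limma) with TG4 at -0.68.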

How the data were processed

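The authors hybridized 10 two-colour Agilent arrays and deposited scanner intensity values per spot (mean pixel signal, not normalized) and ABI signal values per probe and mouse. The scanner's log10 ratio, deposited by the authors, served as an alternative. The array files name neither probe sequences nor a genome build. Of 41174 Agilent probes, 22214 were named through RefSeq accessions and 2192 by the description in parentheses. The members, roles, partner and marker lists were chosen with earlier results of these data known. As in the study's methods, red and green means were loess-normalized without background correction (limma 3.58.1, R 4.3.3, span 0.3). Log2 ratios were turned to TG over WT as labelled, averaged over the probes of a gene and fitted with an intercept and eBayes, with Benjamini-Hochberg adjustment over 34481 genes and unnamed probes at an FDR of 0.1. Levels per mouse came from Aquantile-scaled channels averaged over 2 arrays. ABI values were stabilized with a vsn-type fit. Members with an FDR of 0.1 or less were to be given in full; none passed. Some genes are not reported here one by one but stay in the counts over 44 members, and 1 partner and 1 marker were left out of their lists. Scripts were tested on simulated data. Each ABI array held 1 mouse, but each Agilent array held 2, and each of those mice was on 2 arrays. The number of mice, 5 per genotype, limits the precision. Illumina, Affymetrix and home-spotted arrays were not used here. Shared mouse numbers did not pair the samples: their deviations had r from -0.21 to -0.08 on Agilent and from -0.24 to 0.37 on ABI.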

Additional observations from a re-analysis of the deposited data

Results flagged for a closer look

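Of 78 groups of 5 mice (39 genes, WT and TG), 8 held a mouse whose gap to the next, divided by the group's range, was over 0.71, and 5 of these were TG4. For independent groups of normally distributed levels, chance alone would flag about 1 in 20. The 78 groups share the same mice, so their count cannot be set against that rate. The log2 level of TG4 was 6.48 for Scn8a (the other TG mice 8.56 to 8.70), 9.10 for Clcn3 (9.73 to 9.94), 6.83 for Cacna1a (7.33 to 7.52), 9.90 for Cacnb3 (9.07 to 9.27) and 11.2 for Scn2b (10.4 to 10.6). For Cacng2, WT3 stood at 7.54 below the other WT mice (8.06 to 8.20). For Cacng3, TG2 stood at 8.27 (8.39 to 8.44 in the others). For Clcn5, WT1 stood at 5.83 (5.97 to 6.01).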

How the results depend on the processing

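No channel gene was called, so no ratio of a called gene could be followed. The count of 0 of 44 over arrays also stood under normexp correction, median pixel signals, median centring, the scanner's log ratio, a dye term, the TG mouse as a random block, 1 value per mouse, an FDR of 0.05, probe-by-probe fits and without outlier-flagged spots (added after seeing the data). It became 1 of 37 with dim probes left out (Cacna2d2), where 3295 of 25280 genes were called. It became 1 of 44 with the WT mouse as a random block (Clcn3, FDR = 0.069, limma, consensus correlation -0.25). The count ran from 0 to 1 when the arrays of each mouse were left out. With 1 value per mouse the count was 0 under every alternative run, and with the replicate block (shared mouse numbers) it was also 0. On ABI the call on Scn2b stayed at 0, the replicate block included, and its difference ran from -0.15 to 0.0070 without single mice.

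Without single mice the ratio ran from -0.13 to 0.037 for Cacna1a, from -0.055 to 0.23 for Cacnb4 and from -0.078 to 0.082 for Scn2b. Other alternatives turned no sign among the 10 genes followed, but several values moved. With median centring Clcn3 was at -0.13 (FDR = 0.68, limma), Cacnb1 at 0.17, Scn2b at 0.14, Cacnb4 at 0.084 and Cacna1a at -0.051. With the scanner's log ratio Clcn6 was at -0.22, Cacng2 at -0.45, Cacna1a at -0.13, Cacna2d2 at 0.089, Cacnb4 at 0.0037 and Scn2b at 0.0085. Over all genes, 2816 were called, against 1165 with median centring, 5181 with the WT mouse as a block, 1236 at an FDR of 0.05 and 334 to 2967 without single mice. With 1 value per mouse 29 were called, against 11 with the arrays exchanged, 4 with median centring, 14 at an FDR of 0.05, 0 with the replicate block and 5 to 22 without single mice. Members not well above background have only a bound on their level.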
